A study of Mus musculus with 13 samples.

Results

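The Neurod, Nhlh and Neurog genes encode basic helix-loop-helix transcription factors that drive neurogenesis. The 9 members described here are Neurod1, Neurod2, Neurod4, Neurod6, Nhlh1, Nhlh2, Neurog1, Neurog2 and Neurog3, out of 21893 named genes, and they were measured by 12 of 30626 named probes. They were selected on measured values of the genotype comparison below, so their differences in it are described without a test. Expression was measured on 13 one-colour Agilent arrays of RNA from superior cervical and coeliac ganglia, which are sympathetic ganglia, of mice 2 weeks old. The first group was TH-MYCN+/+, homozygous for a human MYCN transgene whose expression a tyrosine hydroxylase promoter directs to catecholaminergic cells, a model of neuroblastoma (6 arrays). The other was wild type, littermates of the same age (7 arrays). The labels do not say whether an array is 1 animal or a pool, or how both kinds of ganglia were combined, so the spread between arrays may be partly technical.

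In ganglia of TH-MYCN+/+ mice, Neurod1, Neurod6 and Nhlh2 were measured on all 6 arrays at levels well above background. In wild-type ganglia Neurod1 and Neurod6 were below background on all 7 arrays, and Nhlh2 was close to background on 3 arrays and below it on 4. The other members showed no such separation. Nhlh1 and Neurog3 gave low signals in both genotypes, Neurod2 and Neurog1 were near background, and Neurod4 and Neurog2 were below background on every array. The 3 E proteins, with which these factors pair, were higher in TH-MYCN+/+ ganglia.

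Neurogenic factors of this class bind DNA as dimers with an E protein, at short sites of the form CANNTG called E-boxes. Neurog factors act early, in dividing precursors, and switch on Neurod and Nhlh factors, which act later as neurons differentiate. Id proteins lack the DNA-binding region and take up E proteins, and Notch signalling restrains the same genes through Hes repressors. Neurog1 and Neurog2 are known from sensory ganglia and Neurog3 from the endocrine pancreas.

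The promoter stretches of the 3 members that separated the genotypes are printed to show what lies before genes whose transcripts were high on the same arrays. They are RefSeq sequences of the mouse build GRCm38.p6, given 5′ to 3′ on the strand of the gene and ending at the base before its annotated start, with E-boxes (CANNTG, which reads the same way on both strands) in capitals. Neurod1 lies on the minus strand and its stretch is chr2:79456637-79456886. Neurod6 lies on the minus strand and its stretch is chr6:55681264-55681513. Nhlh2 lies on the plus strand, and its stretch, chr3:102009895-102010110, stops where the annotated gene begins, short of the 250 bases shown for the others.
Neurod1: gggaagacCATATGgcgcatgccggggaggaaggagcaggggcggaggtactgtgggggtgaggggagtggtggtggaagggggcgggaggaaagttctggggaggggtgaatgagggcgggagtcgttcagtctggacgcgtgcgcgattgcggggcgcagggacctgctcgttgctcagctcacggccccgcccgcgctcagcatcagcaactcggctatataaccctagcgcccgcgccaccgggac
Neurod6: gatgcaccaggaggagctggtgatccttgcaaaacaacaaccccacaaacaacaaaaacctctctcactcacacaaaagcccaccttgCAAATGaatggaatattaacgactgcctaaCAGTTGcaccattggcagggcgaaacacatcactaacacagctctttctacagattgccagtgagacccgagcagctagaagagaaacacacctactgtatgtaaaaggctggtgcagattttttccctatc
Nhlh2: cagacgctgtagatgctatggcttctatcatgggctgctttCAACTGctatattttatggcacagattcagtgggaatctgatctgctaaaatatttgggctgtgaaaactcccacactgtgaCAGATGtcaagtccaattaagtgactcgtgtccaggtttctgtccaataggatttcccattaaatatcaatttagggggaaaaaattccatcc
These stretches differ in composition. In the 250-base windows GC content was 67.6% before Neurod1, 46.0% before Neurod6 and 42.0% before Nhlh2, where the median of 32851 mouse promoters was 52.4%. The ratio of observed to expected CpG was 0.84, 0.24 and 0.18 in the same order of genes, where the median promoter had 0.37. The window of Neurod1 held 1 E-box (CATATG), that of Neurod6 held 2 (CAAATG and CAGTTG), and that of Nhlh2 held 2 (CAACTG and CAGATG). Some CANNTG site occurred in 66.2% of all windows. The letters CACGTG, an E-box known to be bound by MYC proteins, were in none of the 10 windows of the 9 members and in 6.0% of all windows. CAGATG, searched on both strands and a form known to be bound by Neurod and Neurog factors, was in the windows of Nhlh2, Nhlh1 and Neurod2 and in 14.4% of all windows. CAGCTG was in the window of Neurog3 and in 13% of all windows. Each of these letters is also counted under CANNTG, and a match is only a match of letters. The window of Neurog2 lay wholly inside the annotated gene, and a window of Neurod4 had only 134 of its 250 bases before the gene.

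Intensities below are quantile normalized and on the log2 scale, and each mean is given ± SD over arrays. An array's background was set at the 95th percentile of the signals of 96 ERCC probes, and the lowest normalized signal above it was 2.71 to 3.62 on TH-MYCN+/+ arrays and 2.69 to 3.61 on wild-type arrays. Between 56.3% and 63.0% of the probes of an array were above it. The base of the logarithm was inferred from the range of the deposited values, and every fold difference rests on it. For a gene below background on 1 or more arrays of its dimmer genotype only a lower bound of the fold is given, and none where that bound is under 1. The bound sets the mean on the brighter arrays against, for each dimmer array, the higher of the probe's own signal and the lowest signal above background. In RNA of whole ganglia, fewer cells of a type and less RNA per cell cannot be told apart.

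Neurod1, a factor of neuronal and endocrine differentiation (chromosome 2 in RefSeq, as for the chromosomes below), ran from 6.41 through a median of 6.85 to 7.34 on TH-MYCN+/+ arrays, against 1.04, 1.17 and 1.26 on wild-type arrays. The means were 6.88 ± 0.38 (n = 6) in TH-MYCN+/+ and 1.16 ± 0.08 (n = 7) in wild-type ganglia. The groups lay far apart, and every wild-type value was below background. Neurod1 was therefore at least 15.1-fold higher in TH-MYCN+/+ ganglia. A further Neurod1 probe gave 6.72 ± 0.43 in TH-MYCN+/+ and 1.17 ± 0.31 in wild-type ganglia, so both probes of the gene showed the same separation.

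Neurod6, known from differentiating neurons of the forebrain (chromosome 6), ran from 7.50 through a median of 7.70 to 8.40 on TH-MYCN+/+ arrays. On wild-type arrays it ran from 0.73 through 0.75 to 2.13, with all 7 below background. The means were 7.84 ± 0.38 (n = 6) in TH-MYCN+/+ and 0.96 ± 0.52 (n = 7) in wild-type ganglia. Neurod6 was at least 29.3-fold higher in TH-MYCN+/+ ganglia.

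Nhlh2, a factor of differentiating neurons also known as Nscl2 (chromosome 3), ran from 8.36 through a median of 8.96 to 9.27 on TH-MYCN+/+ arrays. On wild-type arrays it ran from 0.83 through 2.44 to 3.62. The means were 8.88 ± 0.41 (n = 6) in TH-MYCN+/+ and 2.27 ± 1.08 (n = 7) in wild-type ganglia. Unlike Neurod1 and Neurod6, Nhlh2 was above background on 3 of 7 wild-type arrays, replicates 2, 5 and 7, at 3.23, 3.62 and 2.95. It was at least 57.7-fold higher in TH-MYCN+/+ ganglia.

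Nhlh1, the close relative of Nhlh2 (chromosome 1), did not separate the genotypes. Its brighter probe ran from 3.37 through a median of 4.49 to 5.36 on TH-MYCN+/+ arrays, against 1.01, 3.85 and 3.95 on wild-type arrays. It was above background on 5 of 6 TH-MYCN+/+ and 4 of 7 wild-type arrays, and the groups overlapped. The means were 4.38 ± 0.79 (n = 6) in TH-MYCN+/+ and 3.30 ± 1.07 (n = 7) in wild-type ganglia and gave a bound of at least 1.72-fold, which fell under 1 at the stricter background described with the bounds of the other members. The lowest wild-type value, 1.01, was replicate 1. The dimmer Nhlh1 probe gave 3.07 ± 0.71 in TH-MYCN+/+ and 2.88 ± 0.56 in wild-type ganglia, and it was above background on 2 of 6 and 4 of 7 arrays.

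Among the Neurog genes, known as initiators of neurogenesis, none separated the genotypes. Neurog3 (chromosome 10) had a brighter probe that ran from 4.61 through a median of 4.77 to 5.26 on TH-MYCN+/+ arrays and from 1.58 through 4.88 to 6.21 on wild-type arrays. The TH-MYCN+/+ arrays thus lay within the wild-type range, and wild-type replicates 1 and 2, at 1.58 and 2.64, were the 2 below background. The means were 4.83 ± 0.23 (n = 6) in TH-MYCN+/+ and 4.41 ± 1.67 (n = 7) in wild-type ganglia. They gave a bound of at least 1.15-fold, which fell under 1 at the stricter background. The probe was then above background on 0 of 6 TH-MYCN+/+ and 3 of 7 wild-type arrays. The 2 Neurog3 probes disagreed, since the dimmer was below background on all 13 arrays (0.83 in TH-MYCN+/+ and 0.81 in wild-type ganglia), so a Neurog3 transcript rests on 1 probe here. Neurog1 (chromosome 13) averaged 2.54 ± 0.54 (n = 6) in TH-MYCN+/+ and 2.65 ± 0.88 (n = 7) in wild-type ganglia. It ran from 1.55 to 3.18 on TH-MYCN+/+ arrays, with 0 of 6 above background, and from 0.98 to 3.80 on wild-type arrays, with 2 of 7 above. Neurog2 (chromosome 3) averaged 1.03 in both genotypes and was below background on all arrays.

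The remaining Neurod genes were dim. Neurod2, a factor of maturing forebrain neurons (chromosome 11), averaged 3.02 ± 0.70 (n = 6) in TH-MYCN+/+ and 2.91 ± 0.41 (n = 7) in wild-type ganglia. It ran from 2.10 to 3.95 on TH-MYCN+/+ arrays and from 2.41 to 3.53 on wild-type arrays, so the groups overlapped, and was above background on 2 of 6 and 3 of 7 of them. Neurod4, known from retina, hindbrain and spinal cord (chromosome 10), averaged 0.73 ± 0.01 (n = 6) in TH-MYCN+/+ and 0.85 ± 0.30 (n = 7) in wild-type ganglia, below background on every array.

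**Figure D1:**
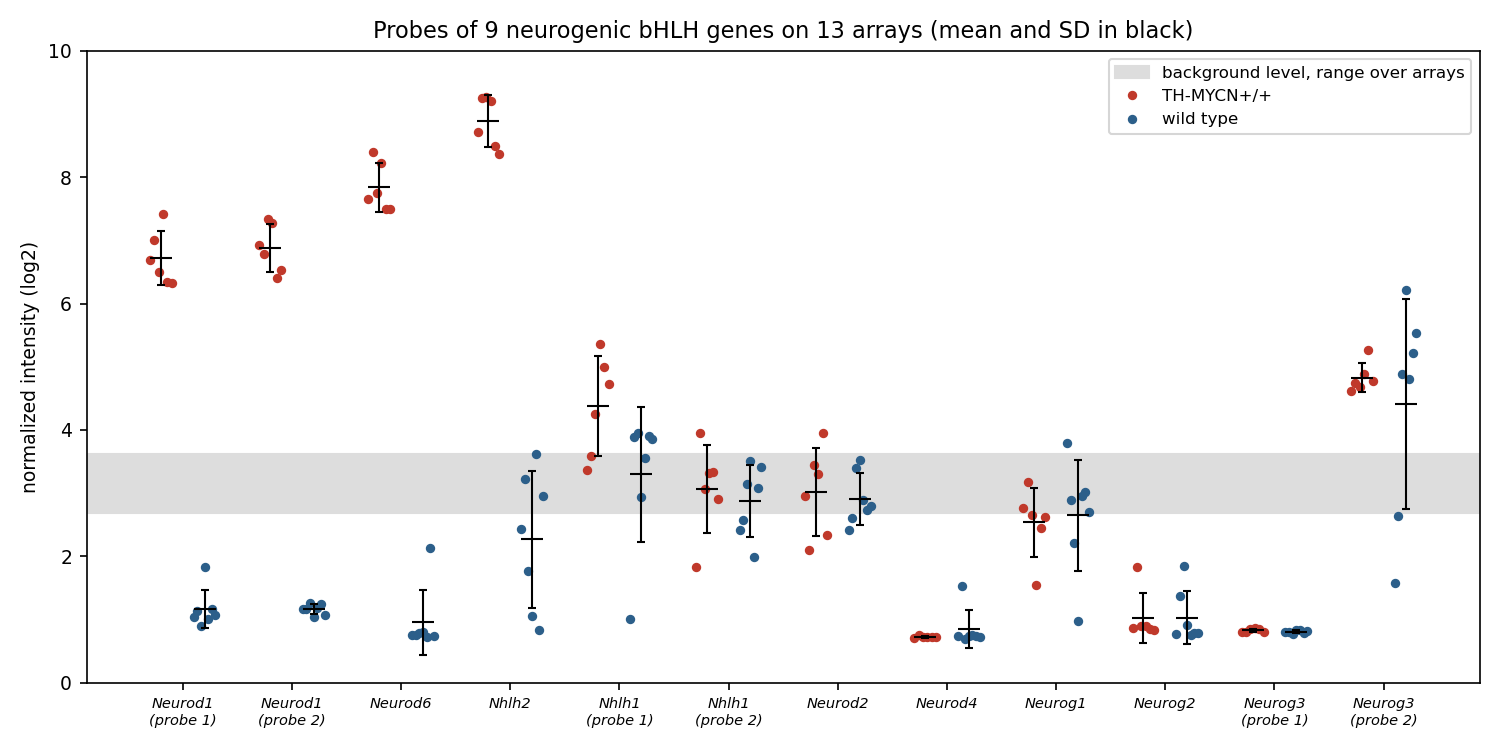
Normalized log2 intensity of the 12 probes of the 9 members on each array, TH-MYCN+/+ (red, 6 arrays) left of wild type (blue, 7 arrays), with mean and SD in black and the grey band showing the range over arrays of the lowest signal above background. Both Neurod1 probes (the right one has the 6.88 mean), Neurod6 and Nhlh2 lie above the band on every TH-MYCN+/+ array and in or below it on every wild-type array, and the other members overlap.

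On every TH-MYCN+/+ array 3 of the 9 members, Neurod1, Neurod6 and Nhlh2, were above every wild-type array, a pattern that 12.3% of all genes had. Neurod1 and Neurod6 were above background on all TH-MYCN+/+ arrays and on no wild-type array. Of all genes, 44 had this pattern (0.201%). Neurod4 and Neurog2 were above background on no array, as were 18.3% of all genes. Nothing is read from these shares, since the members were picked for their values in this comparison. The separation of Neurod1, Neurod6 and Nhlh2 was kept, with 6 of 6 TH-MYCN+/+ and 0 of 7 wild-type arrays above background, when the background was raised to the 99th percentile of the ERCC probes. On wild-type replicate 5 this stricter background was 8.13 as deposited. That is above every deposited Neurod1 value of TH-MYCN+/+ arrays (6.38 to 7.8) and within their Neurod6 range (7.47 to 8.61). At this background that array could not show Neurod1 at the TH-MYCN+/+ level. The bounds fell with the stricter background, to at least 3.75-fold for Neurod1, 7.29-fold for Neurod6 and 15.1-fold for Nhlh2. Over 18 settings of scaling and arrays left out, the bound was 14.1 to 24.8-fold for Neurod1, 27.1 to 47.4-fold for Neurod6 and 54.7 to 91.7-fold for Nhlh2.

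Likeness of pattern was measured as the root mean square difference over the 13 arrays, after each gene was centred on its own mean. It was taken for each member among 15924 other genes whose brightest probe was above background on at least 6 arrays. The 4 genes closest to Neurod1 were Meis2, a homeodomain factor (0.296 log2 units), Nfe2l3, a leucine zipper factor (0.299), Mir9-3hg, the host transcript of a microRNA-9 gene (0.305), and Slc38a4, an amino acid transporter (0.357). The 4 closest to Neurod6 were Cnih3, an auxiliary protein of AMPA receptors (0.493), Slc35f2, a membrane transporter (0.586), Kcnip1, a potassium channel subunit (0.598), and Insm1, a zinc finger factor (0.607). Those closest to Nhlh2 were 9430076C15Rik (0.676), Cdc6, a replication licensing factor (0.679), Agtr2, an angiotensin receptor (0.695), and Exo1, an exonuclease (0.729). For Neurog3 they were Rab36 (0.436), Ndufaf8 (0.461), Secisbp2l (0.475) and Map6d1 (0.497). The distance takes in the difference between the genotypes, on which the members were selected. The 4 genes closest to Neurod1 differed by 5.28 to 5.66 log2 units between genotypes, against 5.71 for Neurod1. Closeness is therefore not read as shared regulation. These lists rest in part on signals below background: Neurod1, Neurod6, Cnih3 and Mir9-3hg were above it on no wild-type array and entered through the TH-MYCN+/+ arrays alone. In a check chosen after the data were seen, each value below an array's lowest signal above background was set to that signal. Of the 4 closest genes 0 were then shared with those above for Neurod1, Neurod6 and Neurog3, and 1, Agtr2, for Nhlh2, so the names are a description of one setting.

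Among the 6 TH-MYCN+/+ arrays alone, the members could be set against a proliferation index, the mean log2 intensity of 11 cell cycle genes such as Mki67 and Top2a. Aurkb, 1 of the 11, was above background on no array, and its values were kept in the mean. The index ran from 10.39 in replicate 5 to 11.17 in replicate 4. Neurod6 was highest in replicates 2 and 4 (8.40 and 8.22) and lowest in replicates 5 and 6 (7.50 in both). Nhlh2 was at 9.20 to 9.27 in replicates 2, 3 and 4 and at 8.36 to 8.71 in the others. Neurod1 was highest in replicates 3 and 4 (7.34 and 7.28) and lowest in replicate 5 (6.41). Skeletal muscle markers summed to 15.72 on the log2 scale in replicate 6, against 6.81 to 10.46 on the other TH-MYCN+/+ arrays. Replicate 6 was kept, the relations with the index were not run without it, and the part of muscle in its values was not tested.

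With this index Neurod6 had Pearson's r of 0.754 (exact permutation p = 0.0708) and Spearman's rho of 0.886 (exact permutation p = 0.0333, adjusted p = 0.233). Neurod1 had r of 0.653 (exact permutation p = 0.156) and rho of 0.600 (exact permutation p = 0.242). Nhlh2 had r of 0.672 (exact permutation p = 0.126) and rho of 0.600 (exact permutation p = 0.242), and Neurog3 had r of -0.133 (exact permutation p = 0.772) and rho of -0.03 (exact permutation p = 1.0). Without the 2 arrays farthest from the median index, r was 0.725 for Neurod6, 0.186 for Neurod1, 0.706 for Nhlh2 and 0.561 for Neurog3. Neurod6 and Nhlh2 correlated at r of 0.812 and rho of 0.771 (exact permutation p = 0.0556 and 0.103), and Neurod1 and Nhlh2 at r of 0.803 and rho of 0.771 (exact permutation p = 0.0903 and 0.103). Neurod1 and Neurod6 had r of 0.459 and rho of 0.600 (exact permutation p = 0.338 and 0.242). For these pairs the 2 arrays left out were those farthest from the median of the second gene, not of the index. Without the 2 arrays farthest from the median of Nhlh2, r was 0.617 for Neurod6 and Nhlh2 and 0.377 for Neurod1 and Nhlh2. Without the 2 farthest from the median of Neurod6, r was 0.992 for Neurod1 and Neurod6. The arrays left out thus differ between relations. None of the 7 relations passed Benjamini-Hochberg adjustment, which gave p of 0.211 to 0.772 for r by exact permutation, two-sided. The smallest p that 6 arrays allow is 0.00278 for rho, and for r it can be lower. Over 5 other settings of scaling and probe averaging r with the index was 0.696 to 0.862 for Neurod1, 0.737 to 0.853 for Neurod6, 0.662 to 0.802 for Nhlh2 and -0.278 to 0.592 for Neurog3. The lowest adjusted exact permutation p of any of the 7 relations in those settings was 0.084. With spike-in scaling and as deposited, a shift of a whole array enters both a member and the index. The part of such shifts in r was not tested.

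**Figure D2:**
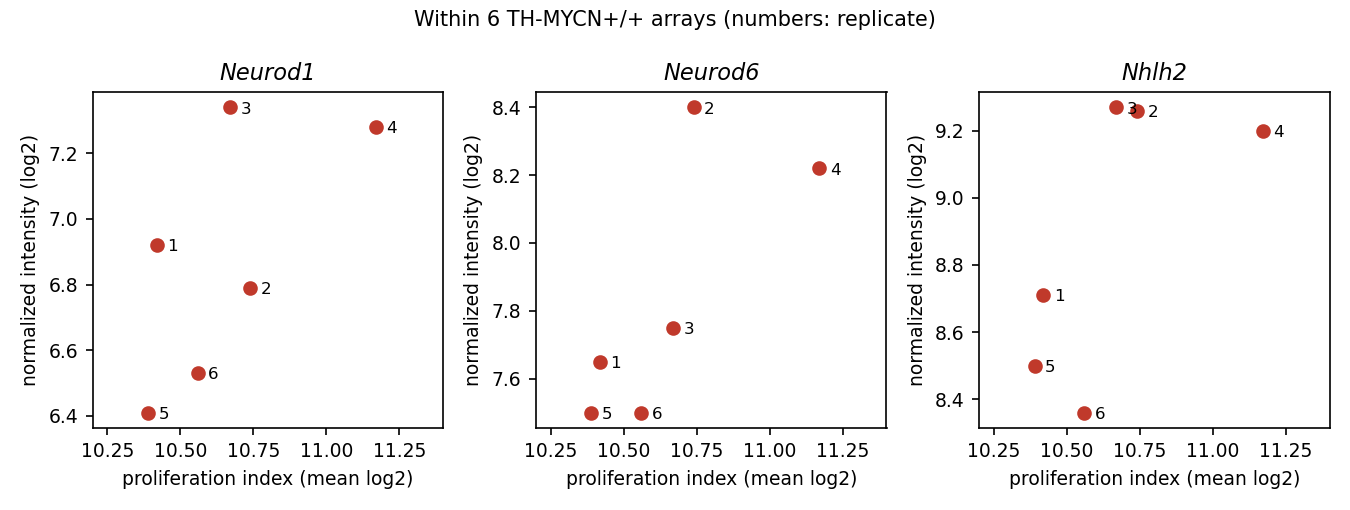
Normalized log2 intensity of Neurod1, Neurod6 and Nhlh2 against the proliferation index (mean log2 intensity of 11 genes) on the 6 TH-MYCN+/+ arrays, each point 1 array with its replicate number. Replicate 4 has the highest index (11.17), replicate 5 the lowest (10.39), and no relation passed the adjusted test.

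The partners, inhibitors and neighbours of these factors were compared across the genotypes by limma over all genes, which called 18.9% of genes higher and 34.3% lower in TH-MYCN+/+ ganglia at an adjusted p under 0.05. Scaling moved the median of all genes: its log2 fold change was -0.15 with quantile normalization, -0.44 with median centring and 0.30 with scaling to E1A spike-in probes. The share of called genes that were higher was 35.5% with quantile normalization, 22% with median centring, 66.8% as deposited and 78.2% with spike-in scaling. Of 55 measured genes in 5 lists, 19 were called higher and 17 lower. After spike-in scaling only 2 of the 55, Id3 and Rest, were still called lower.

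All 3 E proteins rose, with a list median of 1.52. Tcf3, which encodes E2A, reached 11.39 ± 0.34 (n = 6) in TH-MYCN+/+ and 9.86 ± 0.28 (n = 7) in wild-type ganglia, a log2 fold change of 1.53 ± 0.16 (SE, limma adjusted p = 6.29e-06). It was 10.85 to 11.68 on TH-MYCN+/+ arrays and 9.44 to 10.26 on wild-type arrays, with no overlap. Tcf4, which encodes E2-2, rose by 1.52 ± 0.14 (SE, limma adjusted p = 1.93e-06). It was 13.27 to 13.85 on TH-MYCN+/+ arrays and 11.49 to 12.24 on wild-type arrays. Tcf12, which encodes HEB, rose by 0.62 ± 0.13 (SE, limma adjusted p = 0.00138), but missed the threshold after median centring (0.41, adjusted p = 0.0820). After spike-in scaling all 3 rises were larger, at 2.02, 2.02 and 1.15 for Tcf3, Tcf4 and Tcf12.

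All 4 Id genes fell after quantile normalization, with a list median of -1.12. Id3 was 9.34 to 10.09 on TH-MYCN+/+ arrays and 10.57 to 11.56 on wild-type arrays, with a log2 fold change of -1.31 ± 0.18 (SE, limma adjusted p = 4.10e-05). Id2 had a fold change of -0.94 ± 0.11 (SE, limma adjusted p = 1.43e-05), and the arrays of the genotypes did not overlap for either gene. Id4 had -1.45 ± 0.29 (SE, limma adjusted p = 0.000784) and Id1 had -0.89 ± 0.26 (SE, limma adjusted p = 0.0115), with overlap in both. After spike-in scaling Id3 alone kept its call, at -0.81 (adjusted p = 0.0278). Id2 was then at -0.42 (adjusted p = 0.267), Id4 at -0.78 (adjusted p = 0.113) and Id1 at -0.30 (adjusted p = 0.531). The 6 measured glia markers, among them Sox10 and S100b, also were all called lower, with a median of -1.51, and their part in the Id values was not tested.

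Notch pathway genes and repressors moved both ways: 4 of 16 rose, 5 fell and 7 were not called, with a median of -0.08, or -0.07 with Hes1 and Dll4 at their bounds. Dll1, a Notch ligand, ran from 7.69 to 9.19 on TH-MYCN+/+ arrays and from 5.02 to 7.17 on wild-type arrays, a log2 fold change of 2.77 ± 0.34 (SE, limma adjusted p = 1.81e-05). A further Dll1 probe was below background on all arrays, and averaging both gave 1.5 (adjusted p = 0.000114). Hes5, a repressor induced by Notch, rose by 1.51 ± 0.22 (SE, limma adjusted p = 6.32e-05), with 9.72 to 10.63 on TH-MYCN+/+ arrays and 7.92 to 9.01 on wild-type arrays. Rbpj, the DNA-binding partner of Notch, rose by 0.68 and Jag2, a ligand, by 0.59. Another Rbpj probe, above background on every array, was not called (0.28, limma adjusted p = 0.156). Rest, a repressor of neuronal genes outside neurons, was 5.41 to 6.46 on TH-MYCN+/+ arrays and 7.33 to 7.97 on wild-type arrays. Its log2 fold change was -1.57 ± 0.16 (SE, limma adjusted p = 5.15e-06), it stayed called after spike-in scaling (-0.91, adjusted p = 0.0233), and its other probe gave -1.10. The remaining falls were Hey1 at -1.01, Notch2 at -1.26, Dll3 at -0.94 and Hey2 at -0.80, and none of these was called after spike-in scaling. Hes1, the other well-known Notch effector, was above background on 1 of 6 TH-MYCN+/+ and 6 of 7 wild-type arrays and was not called (limma adjusted p = 0.146), with means of 2.82 in TH-MYCN+/+ and 3.60 in wild-type ganglia. It was called lower without wild-type replicate 2 (adjusted p = 0.00143).

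Of 10 other neural factors of the same class, 0 were called higher by limma, 2 were called lower and 8 were not called, and for 7 of the 10 no fold could be given because of the background. At an unadjusted p under 0.05 the count higher was also 0. After median centring 5 were called lower, and after spike-in scaling 0 were called lower and 1 higher, Atoh7 (adjusted p = 0.0123). Hand2, a core factor of sympathetic neurons, had -0.33 ± 0.08 (SE, limma adjusted p = 0.00445), which turned to 0.20 after spike-in scaling (adjusted p = 0.549). Hand1 was at 9.81 in TH-MYCN+/+ and 10.10 in wild-type ganglia and was not called, but was called lower after median centring (-0.50, adjusted p = 0.0106). Atoh8 was above background on 0 of 6 TH-MYCN+/+ and 6 of 7 wild-type arrays and was at least 1.54-fold lower (limma adjusted p = 0.00385). It was not called after spike-in scaling (adjusted p = 0.306). Atoh1, Atoh7, Bhlhe23, Olig3 and Ptf1a were above background on no array. Bhlhe22 was not matched to a named probe and was not analysed here.

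Of 22 genes known downstream of or beside Neurog and Neurod factors, 12 rose, 6 fell and 4 were not called, with a median of 0.46, or 0.31 with Igfbpl1, Myt1 and St18 at their bounds and Eomes left out. Insm1, a zinc finger factor of neuroendocrine and neuronal progenitors, rose by 7.54 ± 0.25 (SE, limma adjusted p = 3.67e-10), with 13.23 to 13.75 on TH-MYCN+/+ arrays and 4.80 to 6.53 on wild-type arrays. Igfbpl1, a marker of newborn neurons, was at least 222-fold higher in TH-MYCN+/+ ganglia, with 1 of 7 wild-type arrays above background. Both were known to be among the largest rises when the list was written. Ebf3, which acts with Neurod factors in neuronal differentiation, rose by 3.16 ± 0.16 (SE, limma adjusted p = 6.80e-09). Rcor2, a corepressor subunit of neural progenitors, rose by 2.59, Sox11, a factor of immature neurons, by 2.58, and Dcx, a microtubule protein of migrating neurons, by 2.43. Elavl3, an RNA-binding protein of neurons, rose by 1.55, and Sox4 by 1.02. Cbfa2t2 rose by 0.31 but was not called after median centring (0.03, limma adjusted p = 0.889). Nor was it called after centring on the 75th percentile (0.16, limma adjusted p = 0.195). Myt1, a zinc finger factor that promotes neurogenesis, was at least 4.12-fold higher (limma adjusted p = 0.00867), with 5 of 7 wild-type arrays above background.

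The 6 falls of that list lay within 1 log2 unit. Stmn2, a tubulin-binding protein of growing axons, fell by 0.93, Btg2, an antiproliferative factor, by 0.81, Tubb3, the neuronal tubulin, by 0.52, and Elavl4, an RNA-binding protein of neurons, by 0.22. Ebf2, a relative of Ebf3, fell by 0.91, and Cbfa2t3, a corepressor, by 0.59. As the mean of all its probes, Cbfa2t3 was not called (-0.16, limma adjusted p = 0.642). After spike-in scaling none of the 6 falls was called, and Tubb3, Elavl4 and Cbfa2t3 had positive values. Myt1l, Rnd2, Gadd45g and Eomes were not called on their brightest probes. Of 3 further Myt1l probes, all above background on every array, 2 were called higher by limma (1.24, adjusted p = 0.000355, and 0.75, adjusted p = 0.000456) and 1 was not called (-0.31). The mean of all Myt1l probes was called higher (0.43, limma adjusted p = 0.00123), and another Rnd2 probe was called lower (-0.58, limma adjusted p = 0.0377). Eomes was above background on 1 array of each genotype. The rise of St18 (at least 1.12-fold, limma adjusted p = 0.0376) and the falls of Elavl4 and Tubb3 were near the threshold and were lost in 8, 11 and 9 of 13 fits with 1 array left out, in the order St18, Elavl4 and Tubb3.

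**Figure D3:**
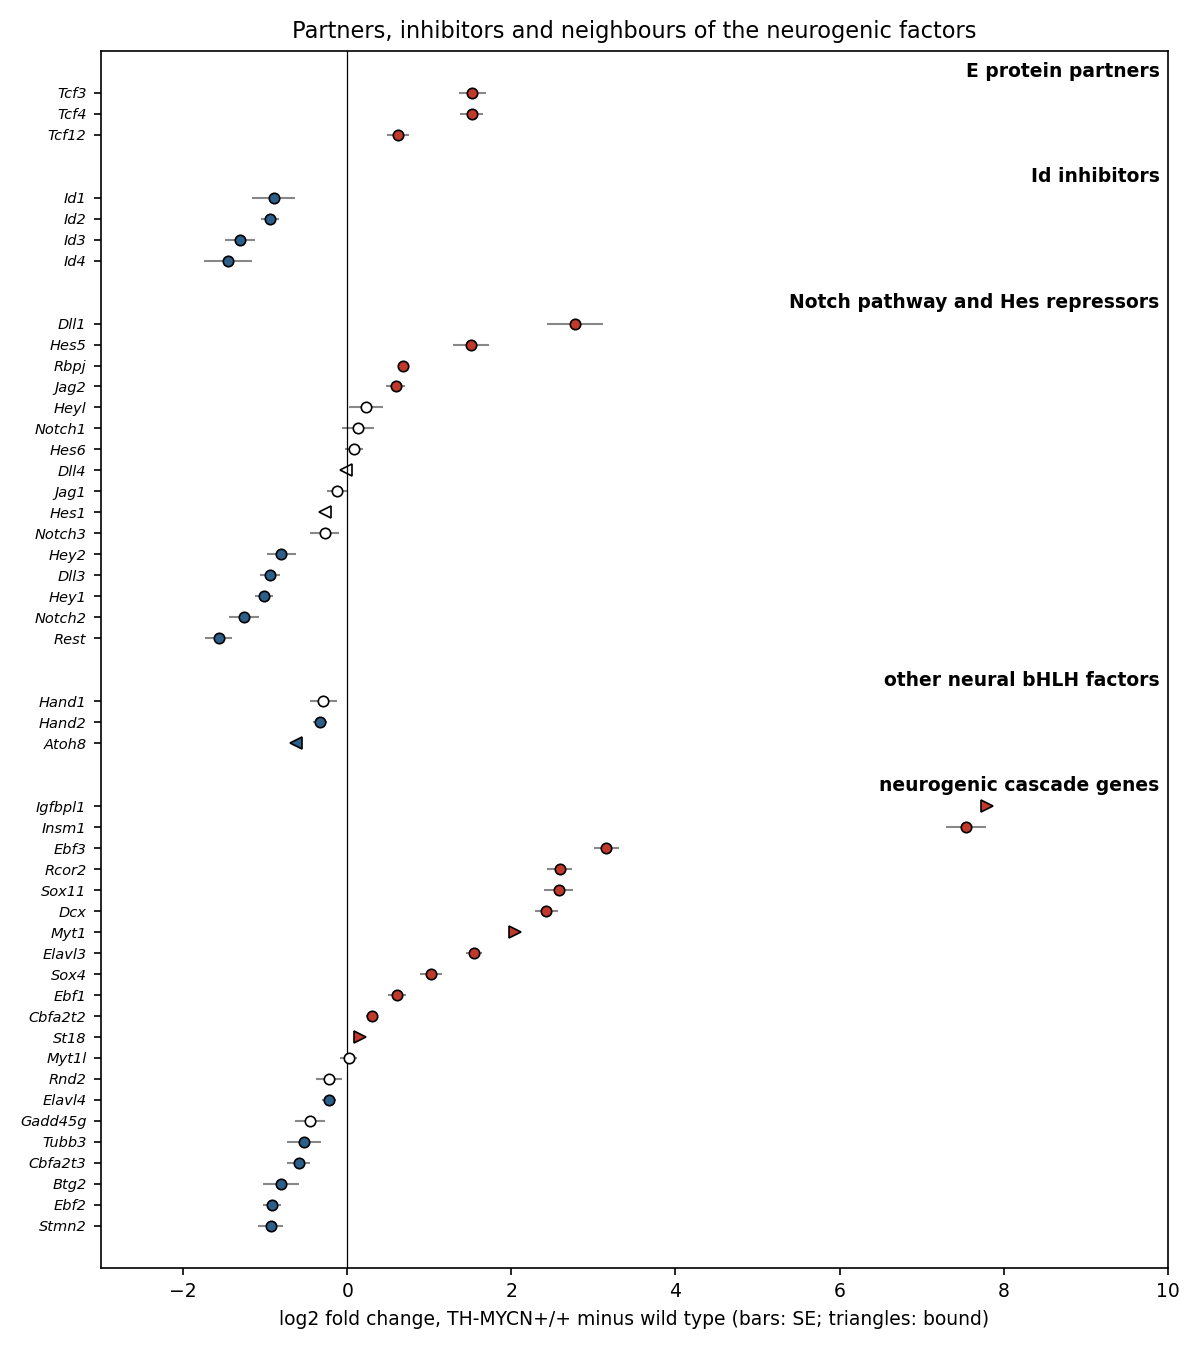
Log2 fold change, TH-MYCN+/+ minus wild type, with SE for 41 genes of 5 lists (circles) and its bound for 6 partly below background (triangles), with 8 of the 55 left out because no fold could be given. Red was called higher and blue lower at an adjusted p under 0.05 by limma, and open symbols were not called. All 3 E proteins lie right of 0 and all 4 Id genes left of it after quantile normalization, whereas 3 of the Id calls were lost after spike-in scaling.

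The ganglia were checked for other tissues in which these factors are known. Of the 10 measured sympathetic markers all were above background on every array, and their summed level was 17.52 to 18.25 on TH-MYCN+/+ arrays and 19 to 19.36 on wild-type arrays on the log2 scale. After quantile normalization 7 of the 10 were called lower, 2 were called higher and 1 was not called. Proliferation genes were at 15.60 to 16.33 on TH-MYCN+/+ arrays and 10.93 to 11.91 on wild-type arrays, so they differed beside Neurod1, Neurod6 and Nhlh2, and their part in those values was not tested. Sensory ganglion markers summed to 9.92 to 10.55 on TH-MYCN+/+ arrays and 11.16 to 11.82 on wild-type arrays. Their defining factor Pou4f1 was above background on 0 of 6 TH-MYCN+/+ and 2 of 7 wild-type arrays, Prdm12 on 1 of 6 and 0 of 7, and Pou4f3 and Mrgprd on none. Within that list P2rx3 (1.85), Tlx3 (0.90) and Trpv1 (at least 3.67-fold, with 5 of 7 wild-type arrays above background) were called higher, and P2rx2, Scn10a, Scn11a and Piezo2 were called lower.

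Pancreatic islet markers, relevant to Neurod1, Neurog3 and Insm1, summed to 7.75 to 8.54 on TH-MYCN+/+ arrays and 7.89 to 9.44 on wild-type arrays. Of the 9 measured islet markers 1 was called higher, 2 were called lower and 6 were not called. Pdx1, Pax4, Iapp and Ppy were above background on no array, and Ins2 was not called. Nkx6-1, a homeodomain factor of islets and of the neural tube, was called higher and was at least 4.70-fold higher in TH-MYCN+/+ ganglia, with 2 of 7 wild-type arrays above background. Forebrain neuron markers, relevant to Neurod2 and Neurod6, summed to 5.63 to 6.37 on TH-MYCN+/+ arrays and 6.77 to 7.91 on wild-type arrays, with Emx1, Fezf2 and Slc17a7 above background on no array. This list also held Neurog2, itself a member and above background on no array, and Eomes, described above. Of its 7 measured genes 1 was called lower and 6 were not called. Exocrine pancreas markers were at 7.75 to 8.54 on TH-MYCN+/+ arrays and 8.45 to 8.79 on wild-type arrays. The part of other tissues in the members' values was not tested. Skeletal muscle markers stood out in TH-MYCN+/+ replicate 6 (15.72), and adrenal markers in wild-type replicate 1 (11.53). Without these 2 arrays 18 pathway genes were called higher and 16 lower, a check chosen after the data were seen. Mouse Mycn, whose probe may not report the human transgene, averaged 10.26 in TH-MYCN+/+ and 10.49 in wild-type ganglia and does not check the labels.

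**Figure D4:**
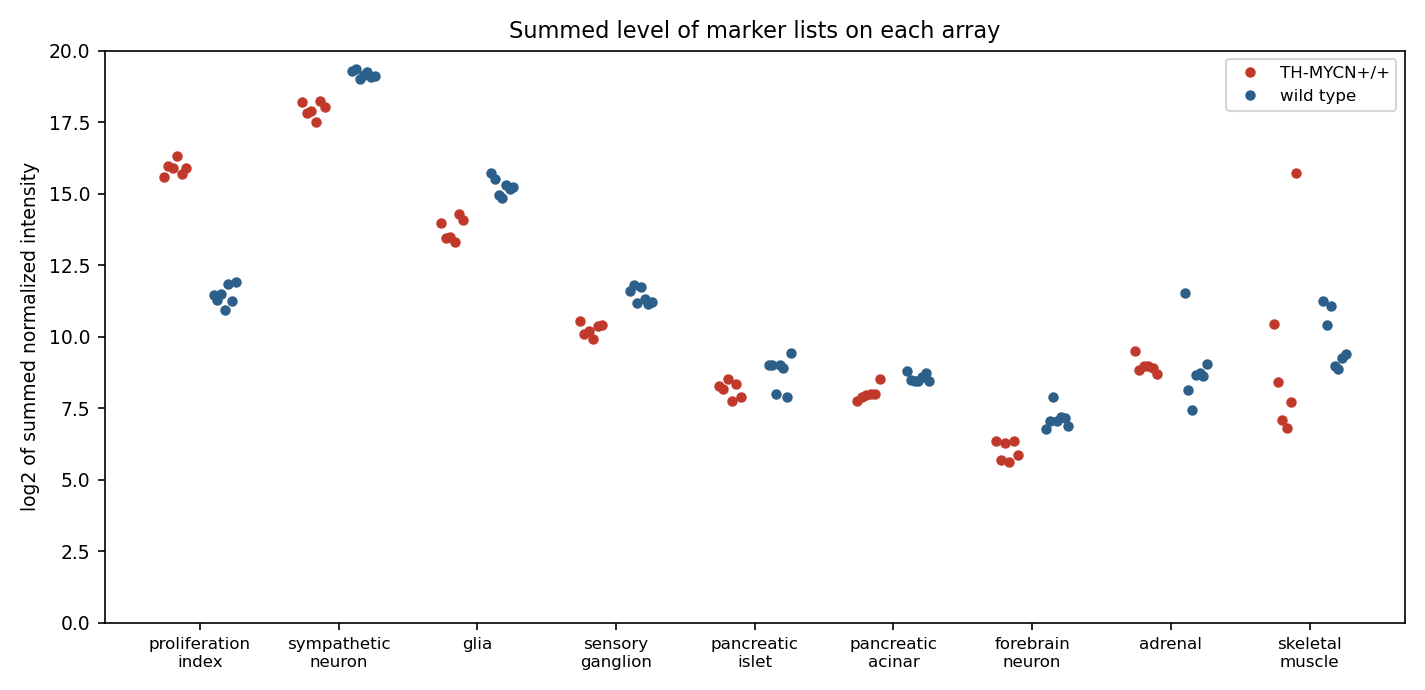
Log2 of the summed normalized intensity of 9 marker lists on each array, TH-MYCN+/+ (red, 6 arrays) left of wild type (blue, 7 arrays). Only the proliferation list lies wholly higher on TH-MYCN+/+ arrays, the muscle list peaks at 15.72 in TH-MYCN+/+ replicate 6, and the adrenal list at 11.53 in wild-type replicate 1.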

How the data were processed

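RNA of 13 samples was hybridised to one-colour Agilent arrays with Cy3, per the labels. Intensities as deposited were taken to be on the log2 scale, a base inferred from their range. Neither scanner software nor background correction is stated in the sources used here. The members and gene lists were chosen with earlier results of these data known, and 0 columns were left out.

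Of 55821 probes, 140 were control probes. Platform annotation gave 30626 probes 1 symbol, for 21893 genes, and the brightest probe by mean over all arrays stood for each of the 6807 genes with several. Values were quantile normalized. TH-MYCN+/+ was set against wild type with limma 3.58.1 (R 4.3.3), two-sided, with Benjamini-Hochberg adjustment over all genes and a threshold of 0.05. An unadjusted p under 0.05 was reached by 12574 genes. The test was run on simulated data beforehand. Spike-in scaling used the mean of 7 of 10 E1A probes, which exceeded background on each array, and assumes equal amounts were added. The ERCC background assumes that no ERCC transcripts were added. Neither is stated. Correlations were tested by exact permutation in SciPy 1.17.1. Named genes were all members, the genes of 5 pathway lists with up to 8 per list given in detail, the 4 genes nearest each member measured on all arrays of a genotype, Mycn, and markers standing beside a member. Motifs were searched in 250-base windows of RefSeq promoters, in which all 9 members were found. The number of arrays limits the precision.

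Alternatives were median and 75th percentile centring, spike-in scaling, the values as deposited, the mean of all probes, a replicate block, a filter on 6 arrays, a trended and robust variance, another background percentile, each array left out in turn, the 2 arrays with neighbouring tissue left out, and, for the nearest genes, values below background set to its level.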

Additional observations from a re-analysis of the deposited data

Results flagged for a closer look

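Single arrays stood apart from the rest of their genotype for 5 probes of the members, of 26 groups examined. The limit used marks about 1 group in 20 by chance if values are normally distributed. Signals below background need not be, so no excess is read from the count. Neurod6 was at 2.13 on wild-type replicate 6, against 0.73 to 0.81 on the other wild-type arrays. A Neurod1 probe was at 1.83 on wild-type replicate 4, against 0.90 to 1.17 on the others. Neurod4 was at 1.53 on wild-type replicate 2, against 0.70 to 0.75. Neurog2 was at 1.83 on TH-MYCN+/+ replicate 2, against 0.83 to 0.90 on the other TH-MYCN+/+ arrays. The brighter Nhlh1 probe was at 1.01 on wild-type replicate 1, against 2.94 to 3.95 on the others. All 5 values were below the background of their array.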

How the results depend on the processing

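The number of genes called lower was 1579 after spike-in scaling and 2746 in the values as deposited, and that of pathway genes was 2 and 5. After median centring Atoh1 (-0.38) and Olig3 (-0.42) turned negative and were called, though below background. After spike-in scaling Hand2 (0.20), Cbfa2t3 (0.01), Elavl4 (0.26) and Tubb3 (0.11) turned positive, and as deposited Hand2 (0.04) and Elavl4 (0.10) did, none of them called. Leaving out 1 array gave 3799 to 4136 genes higher and 7143 to 7692 lower, with 18 to 19 pathway genes higher and 15 to 17 lower. Besides St18, Elavl4 and Tubb3, the calls that changed there were gains: Gadd45g without TH-MYCN+/+ replicate 2 or wild-type replicate 6 or 7, Hes1 without wild-type replicate 2 and Atoh7 without wild-type replicate 5. Without the 2 arrays with muscle or adrenal markers 3943 genes were higher and 7080 lower. The cause of these changes was not tested. With the replicate number as a block 3674 genes were higher and 6863 lower, and 18 and 14 pathway genes, and Id1 was not called (adjusted p = 0.0611). Deviations of same-numbered arrays correlated at -0.126 to 0.047, so the numbers were not taken to pair the arrays. Without scanner flags, signals near the ERCC level limit Nhlh1, Neurod2, Neurog1 and all wild-type values of the 3 bright members.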

Other observations

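Neurod1 and Neurod6 were among 44 genes above background on all TH-MYCN+/+ arrays and on no wild-type array. The others were of several kinds, and those given here were chosen after their values were seen. Some belong to the cell cycle: Clspn, a replication checkpoint protein, averaged 6.91 in TH-MYCN+/+ and 1.70 in wild-type ganglia on the normalized log2 scale, and Ttk, a mitotic kinase, averaged 6.77 in TH-MYCN+/+ and 1.69 in wild-type ganglia. Lhx4, a LIM homeodomain factor, averaged 4.72 in TH-MYCN+/+ and 0.64 in wild-type ganglia, and Six2, a homeodomain factor of progenitor cells, averaged 4.69 in TH-MYCN+/+ and 0.84 in wild-type ganglia. Cd5l, a protein secreted by macrophages, averaged 6.64 in TH-MYCN+/+ and 1.14 in wild-type ganglia, and Htr4, a serotonin receptor, averaged 5.62 in TH-MYCN+/+ and 1.51 in wild-type ganglia. All wild-type values of these genes were below background. These genes were picked by their difference between the genotypes, so the values are a description.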
